A study of Homo sapiens with 30 samples.

Results

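The 74 genes described here encode subunits of the mitochondrial respiratory chain and ATP synthase that are made from nuclear DNA. They were chosen by gene symbol alone, out of 61578 genes in the count tables, and comprise 37 genes of complex I, 4 of complex II, 8 of complex III, 10 of complex IV and 15 of complex V. The rule reads no expression value, though it was proposed with earlier results of these data known. All 74 genes had enough counts to be tested. NDUFA4, placed with complex I by its symbol, is now generally regarded as a complex IV subunit.

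The respiratory chain passes electrons from NADH (complex I) and succinate (complex II) through complex III to oxygen at complex IV, and the proton gradient built on the way drives ATP synthesis by complex V. Complexes I, III, IV and V are assembled from subunits encoded in both genomes, the mitochondrial one transcribed by its own polymerase, whereas complex II is wholly nuclear-encoded. The nuclear subunit genes are transcribed by RNA polymerase II and are regarded as housekeeping genes, whose promoters are known for sites of NRF1, of ETS factors such as GABPA, and of YY1.

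Poly(A) RNA was measured in 30 libraries, 15 groups of 2, with A549, a line from a human lung adenocarcinoma, as the labelled cells of all. In 7 lines the endogenous RPB1, the largest RNA polymerase II subunit (gene POLR2A), carried a degron. The line called Degron had nothing further, and 6 lines also held a doxycycline-inducible RPB1 complement whose C-terminal heptad repeat was WT or carried Y1F, S2A, T4V, S5A or S7A. Treated cells of these 6 lines had received doxycycline at 2 µg/mL for 24 h and then dTAGV-1, the compound that degrades the tagged protein, at 100 nM for 12 h. Treated Degron cells had received dTAGV-1 alone, so that line and the WT line differ in doxycycline as well as in the complement. Each line was also sampled untreated, and an eighth set, Mock, was untreated and of WT genotype. Fly S2 cells had been added at 10% as a spike-in, but the count tables list 0 fly genes. The labels do not say whether the 2 libraries of a group came from separate cultures, nor whether a line is 1 clone. The p-values below therefore measure only the spread between these libraries, which may be technical.

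Library totals were 10866089 to 17912802 counts. The 28 libraries of the 7 degron lines did not show the marker profile of A549 cells. Of 17 A549 and lung epithelial markers, KRT7, KRT19, AKR1B10, AKR1C1, AKR1C2 and AGR2 were under 1 CPM (counts scaled to library size) in all 28. The summed level of the list was 156 to 359 CPM in the treated and 149 to 272 CPM in the untreated libraries of these lines, against 33360 to 33460 CPM in Mock. IRS4, a gene known for its expression in HEK293 cells, was at 50.7 to 1464 CPM in those 28 libraries and at 0.103 and 0.0958 CPM in Mock. The treated and untreated libraries of the 7 lines share this profile, so they are compared with each other below. Comparisons with Mock set libraries of unlike marker profile side by side. The 5 HEK293 or neuronal-like markers summed to 169 to 1127 CPM in the treated and 958 to 1823 CPM in the untreated libraries. The 4 immune markers summed to 19.3 to 41.7 CPM in the treated and 9.32 to 17.2 CPM in the untreated libraries, with PTPRC under 1 CPM in all of them. LCP1 of that list stood at 3.49 to 29.2 CPM in the 28 libraries. The 5 fibroblast markers summed to 20.5 to 73.5 CPM treated and 23.1 to 64.1 CPM untreated. Of these, COL1A1 stood at 15.4 to 52.4 CPM in the 28 libraries, and COL1A2 and DCN were under 1 CPM. The 4 endothelial markers summed to 1.99 to 6.66 CPM treated and 0.414 to 3.12 CPM untreated. Their part in the results was not tested. POLR2A mRNA was measured in both states, and a degron acts on the protein, so it does not check the labels. Its fold change (log2, treated against untreated) was 0.55 ± 0.26 (SE) in the Degron line (adjusted p = 0.092 in the quasi-likelihood test of edgeR, adjusted by Benjamini-Hochberg) and 1.38 ± 0.27 (SE) in the WT line (adjusted p = 0.0034). In T4V, which also held an inducible complement, it was 0.56 ± 0.26 (SE, adjusted p = 0.11), and in the other 4 complement lines it was 0.97 (Y1F) to 1.46 (S7A), all called.

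Promoter sequences were at hand for 61 of the 74 genes. Relative to the typical gene of the library, UQCR11 and SDHA had the clearest changes below, though that of SDHA depends on the scaling. The 6 sequences shown carry the known motifs of this gene class or belong to these 2 genes. Each runs 5′ to 3′ on the strand of its gene, from 250 bases before the gene start to 50 bases after it (RefSeq, GRCh38.p14). They lie at chr11:112086623-112086922 (plus strand) for SDHD, chr9:122159730-122160029 (minus) for NDUFA8, chr2:97645812-97646111 (plus) for COX5B, chr1:17053983-17054282 (minus) for SDHB, chr19:1605413-1605712 (minus) for UQCR11 and chr5:218070-218369 (plus) for SDHA. Capitals mark exact matches on either strand to GCATGCGC (core of the NRF1 site, GCGCATGC on the other strand), CCGGAAG (ETS factors, CTTCCGG on the other strand) or AAGATGGC (YY1), and overlapping matches run together.
SDHD: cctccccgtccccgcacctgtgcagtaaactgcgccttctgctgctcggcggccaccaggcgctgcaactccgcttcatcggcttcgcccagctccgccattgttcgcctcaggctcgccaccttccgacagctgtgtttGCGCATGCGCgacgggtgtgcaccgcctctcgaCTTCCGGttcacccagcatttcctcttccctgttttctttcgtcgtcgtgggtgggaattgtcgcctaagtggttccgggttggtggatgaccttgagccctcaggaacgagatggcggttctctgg
NDUFA8: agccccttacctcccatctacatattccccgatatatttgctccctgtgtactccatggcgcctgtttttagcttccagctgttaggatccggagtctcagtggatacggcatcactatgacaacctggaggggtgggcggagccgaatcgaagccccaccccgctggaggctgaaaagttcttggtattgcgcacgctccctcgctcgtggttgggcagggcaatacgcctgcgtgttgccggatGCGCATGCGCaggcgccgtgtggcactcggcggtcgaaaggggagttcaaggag
COX5B: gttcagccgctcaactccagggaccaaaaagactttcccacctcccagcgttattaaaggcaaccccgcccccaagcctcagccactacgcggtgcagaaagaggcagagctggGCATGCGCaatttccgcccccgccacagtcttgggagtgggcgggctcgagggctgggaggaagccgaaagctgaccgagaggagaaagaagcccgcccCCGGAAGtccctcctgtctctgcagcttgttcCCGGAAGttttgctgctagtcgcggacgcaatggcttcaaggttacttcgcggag
SDHB: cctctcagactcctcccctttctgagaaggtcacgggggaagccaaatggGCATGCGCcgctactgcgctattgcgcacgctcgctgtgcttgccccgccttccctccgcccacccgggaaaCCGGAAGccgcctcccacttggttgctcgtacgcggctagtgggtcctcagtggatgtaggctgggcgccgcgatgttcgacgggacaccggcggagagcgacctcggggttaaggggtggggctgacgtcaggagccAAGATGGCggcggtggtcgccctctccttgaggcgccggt
UQCR11: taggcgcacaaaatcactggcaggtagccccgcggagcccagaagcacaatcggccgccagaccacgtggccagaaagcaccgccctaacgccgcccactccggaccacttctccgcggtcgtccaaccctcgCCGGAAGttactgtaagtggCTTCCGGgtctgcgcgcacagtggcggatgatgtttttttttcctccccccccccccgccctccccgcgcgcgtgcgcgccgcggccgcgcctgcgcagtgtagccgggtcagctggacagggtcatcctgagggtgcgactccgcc
SDHA: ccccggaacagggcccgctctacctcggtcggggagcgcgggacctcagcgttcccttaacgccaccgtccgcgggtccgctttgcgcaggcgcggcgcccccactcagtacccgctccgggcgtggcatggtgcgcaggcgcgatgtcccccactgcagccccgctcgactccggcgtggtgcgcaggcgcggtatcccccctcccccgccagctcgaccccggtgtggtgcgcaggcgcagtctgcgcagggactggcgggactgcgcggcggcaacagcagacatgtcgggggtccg

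SDHD held an NRF1 match on both strands and an ETS match, NDUFA8 an NRF1 match on both strands, SDHB a match to each of the 3, COX5B an NRF1 and a pair of ETS matches, and UQCR11 a pair of ETS matches. SDHA held none of these letters in its window. Among the 61 genes, 14 (23%) held the NRF1 motif, 20 (32.8%) the ETS motif and 12 (19.7%) the YY1 motif. Among all 27305 gene symbols with a promoter the shares were 3.68%, 12.2% and 3.52%, and among the 13203 of them whose genes were tested here they were 5.76%, 19.6% and 5.54%. These matches are a description of the sequence and show no binding.

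Levels per transcript length (TPM) spanned a wide range among the 74 genes. In the 14 untreated libraries of the 7 lines, ATP5F1B, the catalytic beta subunit of ATP synthase, was the most abundant at a mean of 2299 TPM (2150 to 2480 over libraries). NDUFS5, an accessory subunit of complex I, followed at 1028 TPM (878 to 1178), COX8A of complex IV at 827 TPM (612 to 1034) and UQCRH, the hinge subunit of complex III, at 771 TPM (709 to 849). The ranges of NDUFS5 and COX8A overlap, as do those of COX8A and UQCRH, so only the first place stands clear of its neighbour. At the low end stood SDHA with 9.59 TPM (7.67 to 11.04), NDUFA9 with 6.17, NDUFB5 with 5.48, NDUFA13 with 4.53, NDUFA7 with 3.03 and NDUFV2 with 1.13 TPM (0.591 to 1.64). Some of these low values belong to genes that share sequence with other loci. SDHA, the flavoprotein that oxidises succinate, had 11066 counts over all libraries beside 7834 counts at its 4 named pseudogenes, and NDUFV2, an iron-sulfur core subunit of complex I, had 291 counts beside 665 at its pseudogene. NDUFA7 had 443 counts in all. NDUFA7, NDUFA9, NDUFA13 and NDUFV2 also overlap other genes on the same strand. Where reads fit several loci or lie in a shared stretch, the sources used here do not say how they were assigned. The levels of SDHA, NDUFV2, NDUFA7, NDUFA9 and NDUFA13 are therefore uncertain. The 3 genes for the identical c subunit of the ATP synthase rotor overlapped in level, ATP5MC3 at 260.5 TPM (227 to 286), ATP5MC2 at 206 TPM (185 to 244) and ATP5MC1 at 184 TPM (137 to 255). In complex II SDHC stood highest at 254 TPM and SDHB at 196 TPM, in complex III UQCRB lowest at 52.7 TPM, in complex IV COX7B lowest at 76.4 TPM and in complex V ATP5MG lowest at 19.1 TPM. By complex, the median gene of the Degron line stood at 330 TPM treated and 269 TPM untreated in complex IV, and at 60.3 TPM treated and 60.2 TPM untreated in complex I. Complexes II, III and V lay between, at 151, 210 and 197 TPM treated and 137, 186 and 184 TPM untreated.

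**Figure D1:**
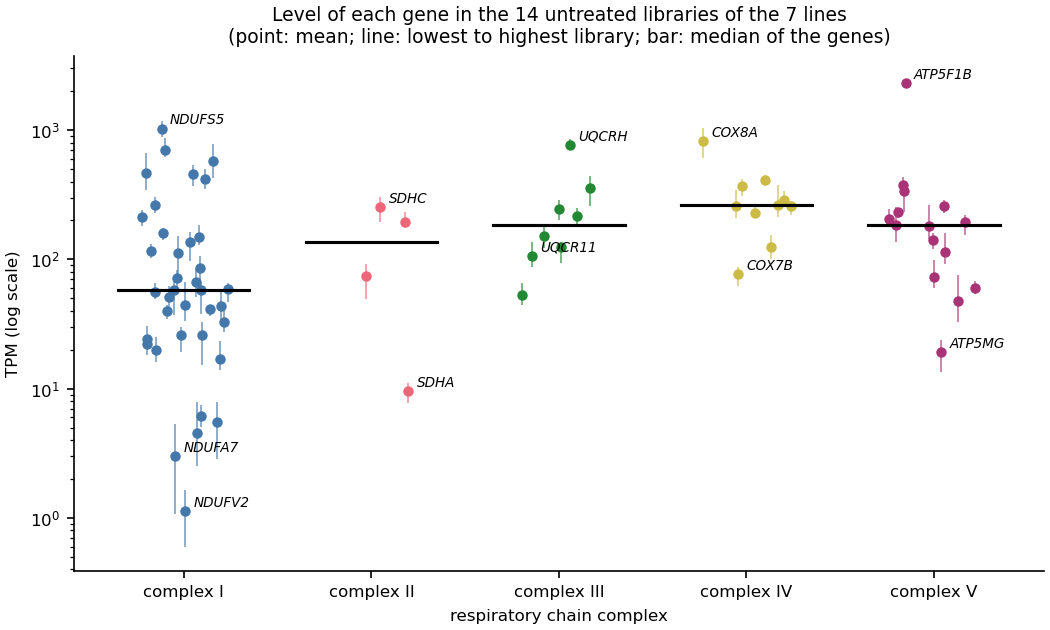
Level of each of the 74 genes in the 14 untreated libraries of the 7 lines, in TPM on a log scale, by complex. Points are means over libraries, thin lines run from the lowest to the highest library, and bars are the median gene of a complex; ATP5F1B stands highest at 2299 TPM and NDUFV2 lowest at 1.13 TPM.

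After treatment the 74 genes took a larger share of the counts. Their summed share was 0.838% to 1.16% (median 0.987%) in the 14 treated libraries of the 7 lines, against 0.793% to 0.933% (median 0.879%) in the 14 untreated ones, and both treated libraries lay above both untreated ones in 6 of the 7 lines. In the WT line the shares were 0.838% and 0.992% treated and 0.874% and 0.835% untreated, and there the groups overlapped. The Degron line had the highest share of any library, with 1.02% and 1.16% treated against 0.914% and 0.843% untreated. A share measures these mRNAs against the rest of the library, and in bulk RNA fewer cells of a type and less RNA per cell cannot be told apart.

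Gene by gene, most members outside the Degron line kept close to the typical gene of their library, and the ones that passed the test were mainly higher. With TMM scaling (trimmed mean of M values), which sets the typical gene of a comparison near no change, the median log2 fold change of the 74 genes, treated against untreated, was 0.35 in the Degron line, where that of all tested genes was 0.05. For WT it was 0.11, for Y1F 0.09, for S2A 0.11, for T4V 0.16, for S5A 0.13 and for S7A 0.06, beside medians of all tested genes of 0.03, 0.03, -0.01, 0.03, 0.02 and 0.00. Calls are an adjusted p under 0.05 in the quasi-likelihood test of edgeR, adjusted by Benjamini-Hochberg over all 19982 tested genes. In the Degron line 29 of the 74 genes were higher and 1 was lower, where 44.4% of all tested genes were called, 23.1% higher and 21.4% lower. At an unadjusted p under 0.05 in the same test, 42 members were higher and 1 lower in that line. DESeq2's Wald test called 32 higher and 1 lower. In the WT line 0 were higher and 1 was lower (4.93% of all tested genes called, 3.09% higher and 1.84% lower). At an unadjusted p under 0.05, 4 members were higher and 2 lower there, the called one included, and DESeq2's Wald test called 1 higher and 1 lower.

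Among the 5 mutant lines, Y1F had 9 members higher and 5 lower, where 44% of all tested genes were called, 23.1% higher and 21% lower. S2A had 8 and 4 (35.1% called, 17% higher and 18.2% lower), T4V 12 and 1 (28.9% called, 14.8% and 14%), S5A 8 and 4 (49.7% called, 25.5% and 24.2%) and S7A 5 and 1 (34.9% called, 17.8% and 17.1%). In this fit over all 30 libraries the share of the 74 genes called in each mutant line, 8.11% to 18.9%, was below the share of all tested genes. In the S5A line their changes were also the more tightly grouped. The quartiles of the 74 genes there were -0.06 and 0.25 on the log2 scale, against -0.49 and 0.67 for all tested genes. The part of expression level in this was not tested. Over the 7 lines 36 of the 74 genes were called in none, 30 were called higher in at least 1 and lower in none, 8 were called lower in at least 1 and higher in none, and 0 were called both ways.

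The direction of these changes depends on what is held constant. The authors' deposited base means imply a factor for each library, and with those factors the median log2 change of all tested genes was -0.79 for Degron, -0.19 for WT, -0.82 for Y1F, -0.53 for S2A, -0.41 for T4V, -0.92 for S5A and -0.81 for S7A. The median of the 74 genes was then -0.51, -0.08, -0.79, -0.41, -0.29, -0.83 and -0.77 in the same order of lines, still slightly above that of all tested genes in each. Counts of members higher and lower became 0 and 51 for Degron (67.8% of all tested genes called), 0 and 1 for WT (3.27%), 0 and 66 for Y1F (68%), 0 and 22 for S2A (50.8%), 0 and 12 for T4V (38.1%), 0 and 67 for S5A (71.3%) and 0 and 66 for S7A (67.9%). The authors' deposited tables list 0 members higher in any line and 42 lower for Degron (49.6% of all listed genes called there in either direction), 0 for WT (0.104%), 66 for Y1F (52.4%), 42 for S2A (42.8%), 11 for T4V (34.3%), 69 for S5A (53.1%) and 58 for S7A (50.2%). Scaling to the 13 mRNAs of the mitochondrial genome, which RNA polymerase II does not transcribe, gave 0 higher and 11 lower for Degron (52.3% of all tested genes called), 0 and 2 for WT (11.5%), 3 and 20 for Y1F (50%), 0 and 29 for S2A (53.5%), 0 and 38 for T4V (52.4%), 1 and 57 for S5A (67.5%) and 1 and 21 for S7A (47.5%). Words such as higher and lower below refer to TMM, that is to the typical gene of the library, unless another scaling is named.

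**Figure D2:**
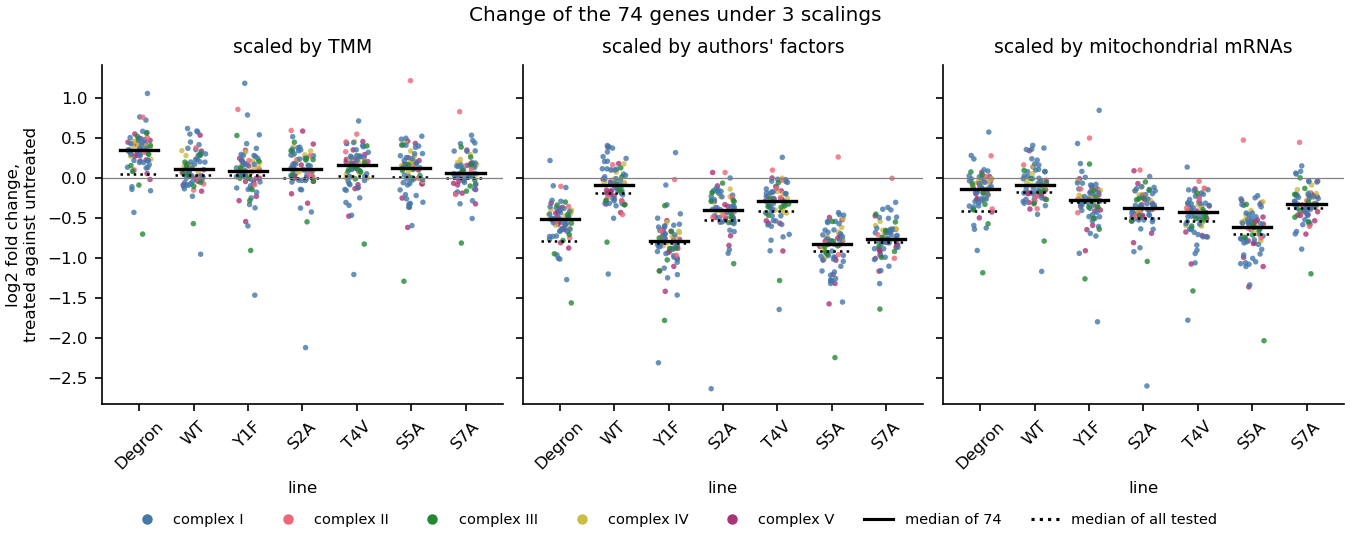
Log2 fold change of the 74 genes, treated against untreated, in each line under 3 scalings; each point is a gene coloured by complex, solid bars are the median of the 74 genes and dotted bars that of all 19982 tested genes. With TMM the median of the 74 genes is 0.35 in the Degron line and 0.06 to 0.16 in the others, and with the authors' factors it is -0.08 to -0.83.

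The counts also changed when a library was left out, which leaves 1 library in a group. In Y1F, S2A and T4V the members higher became fewer whichever library it was. The part of the smaller group in this was not tested. Leaving out treated replicate 2 of the Degron line left 10 members higher, and leaving out treated replicate 1 left 32. In T4V the 12 members higher became 2 without treated replicate 1 and at most 7 without any other library, and in S2A the 8 became 3 without treated replicate 1. In Y1F the 9 became 4 without treated replicate 2, in S5A the 8 became 4 without treated replicate 1, and in S7A the 5 became 2 without untreated replicate 2. Of members lower, the 5 of Y1F became 2 without treated replicate 1 and the 4 of S5A became 1 without untreated replicate 1. The treated WT libraries differed most, and the median change of the 74 genes in WT was -0.09 without treated replicate 2 and 0.31 without treated replicate 1. That median was also below 0 in Y1F without treated replicate 2 (-0.02) and in S7A without untreated replicate 2 (-0.06). Fitting only a line's own 4 libraries moved the counts of members higher and lower to 38 and 4 in S2A (59.2% of all tested genes called, 29.4% higher and 29.8% lower), and to 37 and 12 in S5A (72.9% called, 36.7% and 36.2%). It gave 12 and 1 in Degron (38.5% called, 18.9% and 19.6%), 1 and 1 in T4V (16.5% called, 7.52% and 8.98%), 3 and 1 in S7A (20.9% called, 12.5% and 8.4%), and 9 and 2 in Y1F (49.7% called, 25.1% and 24.6%). How many members passed in S2A and S5A thus depends on which libraries are fitted. A filter at a mean of 5 CPM gave 22 members higher in Y1F, 23 in S2A, 25 in S5A and 16 in S7A. The share of all tested genes called with that filter is not at hand, so these counts are not set against it.

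**Figure D3:**
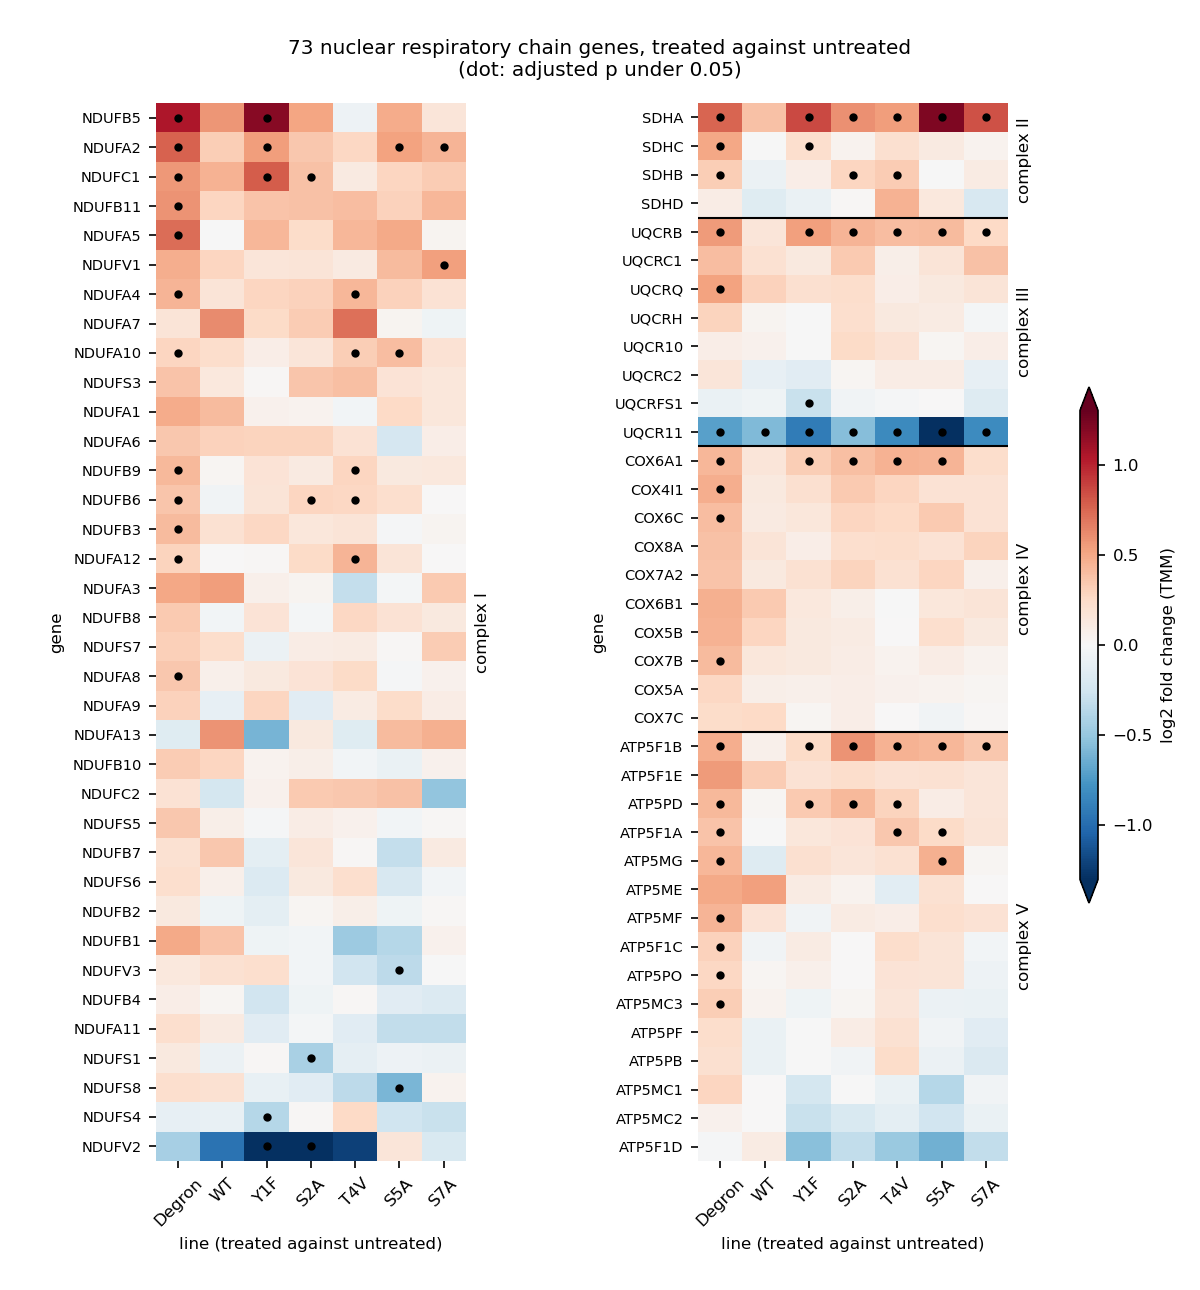
Log2 fold change (TMM, treated against untreated) of 73 of the 74 genes in the 7 lines, by complex and in order of their mean change; dots mark an adjusted p under 0.05. UQCR11 is lower in all 7 lines, SDHA and UQCRB are higher in 6, and NDUFV2 lies beyond the end of the colour scale in 2 lines.

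Complex I takes electrons from NADH, and its 37 genes here were mostly uncalled. In the Degron line 12 were higher and 0 lower, with a median log2 change of 0.33. WT had 0 called, Y1F 3 higher and 3 lower, S2A 2 and 3, T4V 5 and 0, S5A 2 and 3, and S7A 2 and 0. The accessory subunit NDUFA2 was higher in 4 lines. It had 73.8 and 94.3 CPM in treated against 53.8 and 45.2 CPM in untreated Degron cells (log2 change 0.76 ± 0.16 SE, adjusted p = 5.1e-04 in edgeR's quasi-likelihood test). In S5A it had 74.6 and 73.8 CPM treated against 53.4 and 50.0 CPM untreated (0.52 ± 0.16), and in S7A 67.1 and 73.5 against 58.6 and 45.2 CPM (0.44 ± 0.16). The treated libraries lay above the untreated ones in all 7 lines for this gene. The calls in S5A and S7A each failed in 3 of the 4 fits that left out a library, and NDUFA2 overlaps genes on the other strand.

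NDUFB5 and NDUFC1, both accessory subunits of the membrane arm, had the largest increases of complex I in Y1F. NDUFB5 had 19.0 and 11.8 CPM in treated against 6.94 and 6.79 CPM in untreated Y1F cells (log2 change 1.18 ± 0.32 SE), and 18.2 and 16.1 CPM in treated against 9.62 and 6.73 CPM in untreated Degron cells (1.06 ± 0.31). Its call failed in 1 of 4 such fits in Y1F and in 2 of 4 in Degron. NDUFC1 had 61.5 and 65.2 CPM in treated against 36.2 and 37.2 CPM in untreated Y1F cells (0.79 ± 0.14, adjusted p = 8.2e-05 in edgeR's quasi-likelihood test), and this call held in all 4 fits. NDUFC1 shares sequence space with the neighbouring genes MGARP and NAA15. NDUFV1, the NADH-binding core subunit, was higher in S7A, with 107 and 140 CPM treated against 83.4 and 87.8 CPM untreated (0.53 ± 0.19, adjusted p = 0.037 in edgeR's quasi-likelihood test), a call lost in 3 of 4 fits without a library.

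NDUFS1, the largest iron-sulfur subunit, was called lower in S2A, with 130 and 136 CPM treated against 174 and 182 CPM untreated (log2 change -0.43 ± 0.10 SE, adjusted p = 0.0017 in edgeR's quasi-likelihood test), and the call held without any 1 library.

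NDUFS8, another iron-sulfur core subunit, and NDUFV3, an accessory subunit at the NADH end, were lower in S5A. NDUFS8 had 48.8 and 53.8 CPM treated against 78.2 and 77.04 CPM untreated (log2 change -0.60 ± 0.24 SE), a call lost in each of the 4 fits without a library, and NDUFV3 had 51.4 and 50.2 against 65.8 and 62.3 CPM (-0.34 ± 0.10), lost without untreated replicate 1. NDUFS4, an accessory subunit known for its loss in Leigh syndrome, had 13.7 and 13.5 CPM in treated against 17.2 and 18.1 CPM in untreated Y1F cells (-0.38 ± 0.13), lost in 3 of the 4 fits. NDUFV2 was lower in Y1F (0.411 and 0.0822 CPM treated, 0.898 and 0.688 CPM untreated) and in S2A (0.163 and 0.170 CPM treated, 0.636 and 0.869 CPM untreated). These values rest on few reads, and its pseudogene NDUFV2P1 also had a lower median, 1.18 CPM in the treated against 1.75 CPM in the untreated libraries of the 7 lines, so little weight can be put on the fitted log2 changes of -1.47 and -2.12.

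Complex II oxidises succinate and belongs to the tricarboxylic acid cycle as well as the respiratory chain. SDHA, its catalytic flavoprotein (ENSG00000073578, chr5:218241-256700, plus strand, GENCODE 29 on GRCh38), was higher in 6 of the 7 lines. In the S5A line it had 45.9 and 46.3 CPM treated against 20.6 and 19.0 CPM untreated, a log2 change of 1.22 ± 0.13 (SE, adjusted p = 9.4e-08 in edgeR's quasi-likelihood test). In Y1F it had 33.9 and 37.1 CPM treated against 19.1 and 20.03 CPM untreated (0.86 ± 0.13), and in S7A 35.2 and 42.6 against 21.7 and 22.1 CPM (0.83 ± 0.13). In these 3 lines every treated library lay well above every untreated one. In the Degron line SDHA had 33.5 and 39.9 CPM treated against 21.4 and 22.03 CPM untreated (0.76 ± 0.12), in S2A 26.5 and 23.2 against 16.6 and 16.3 CPM (0.59 ± 0.13), and in T4V 30.4 and 29.6 against 22.3 and 18.7 CPM (0.55 ± 0.13). In WT it had 25.3 and 28.97 CPM treated against 22.7 and 19.1 CPM untreated, which did not overlap either, with a log2 change of 0.38 ± 0.13 (SE, adjusted p = 0.092 in edgeR's quasi-likelihood test).

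No call of SDHA was lost when a library was left out. In T4V the call was lost when only the line's own 4 libraries were fitted (0.55, adjusted p = 0.075 in edgeR's quasi-likelihood test), and the calls depend on the scaling. With the authors' factors its log2 change was -0.11 for Degron, -0.02 for Y1F, 0.07 for S2A, 0.10 for T4V, 0.26 for S5A and -0.01 for S7A, none of them called, so SDHA then stood near no change while the typical gene was lower. With mitochondrial scaling it was called higher in 3 lines. Of the pseudogenes, SDHAP4 had a median of 13.7 CPM in the treated and 12.8 CPM in the untreated libraries of the 7 lines, SDHAP1 4.23 and 3.54 CPM, and SDHAP3 2.44 and 0.822 CPM, while SDHAP2 had 0.

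The other subunits of complex II changed less. SDHB, the iron-sulfur subunit, was higher in Degron (147.9 and 149 CPM treated, 121 and 117 CPM untreated), S2A (147 and 139, against 117 and 119 CPM) and T4V (138 and 126, against 107 and 103 CPM), by 0.32, 0.28 and 0.33 on the log2 scale with an SE of 0.09 each. SDHC, a membrane anchor that binds haem and ubiquinone, was higher in Degron, at 156 and 154 CPM treated against 105 and 113 CPM untreated (0.50 ± 0.08), and in Y1F, at 151 and 153 against 123 and 138 CPM (0.22 ± 0.08). SDHD, the other anchor, was called in no line. Its replicates spread widely, for instance 65.6 and 38.3 CPM in treated against 40.6 and 56.5 CPM in untreated Degron cells.

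**Figure D4:**
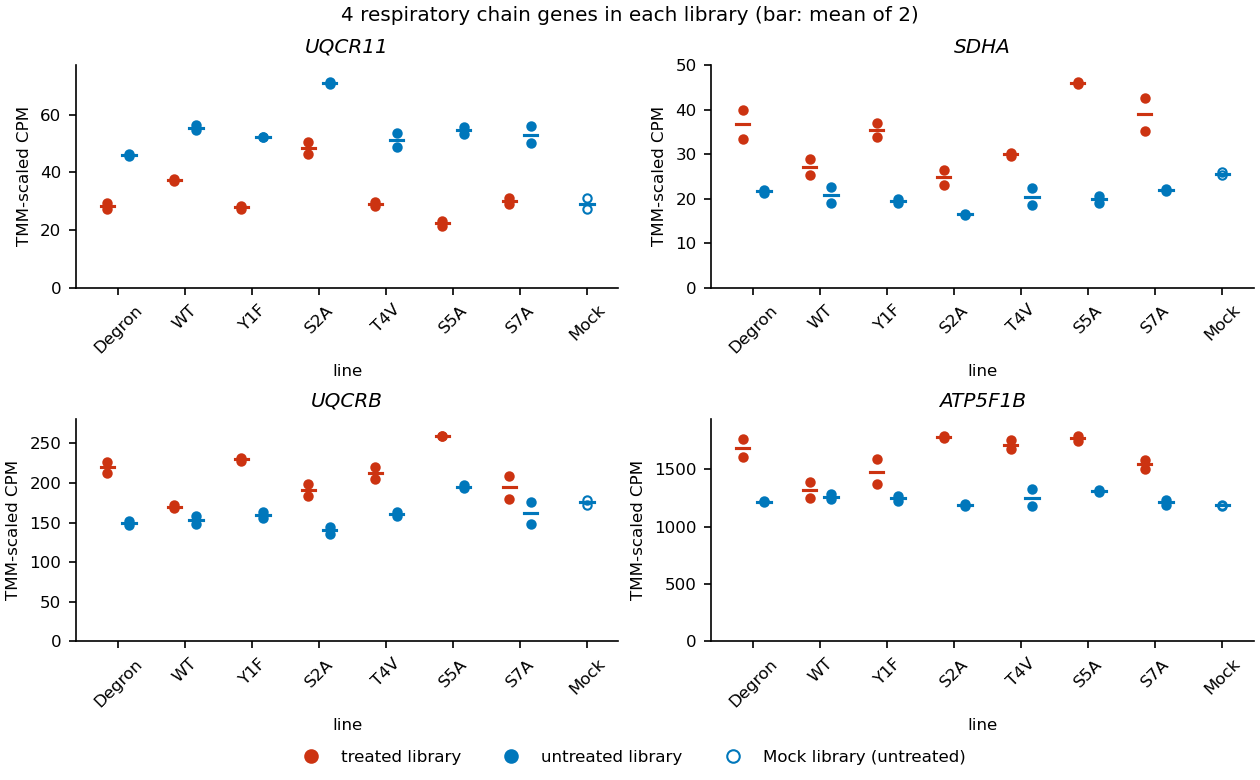
TMM-scaled CPM of UQCR11, SDHA, UQCRB and ATP5F1B in every library; treated libraries are left of the untreated ones of the same line, bars are the mean of 2 libraries and Mock is at the right. UQCR11 stands lower in treated than in untreated libraries of all 7 lines, at 21.5 to 50.6 CPM against 45.8 to 71.4 CPM, and SDHA stands higher in all 7.

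Complex III passes electrons from ubiquinol to cytochrome c. UQCR11, a small accessory subunit (ENSG00000127540, chr19:1597172-1605490, minus strand, GENCODE 29 on GRCh38), was the one member called lower in all 7 lines. In S5A it had 23.1 and 21.5 CPM treated against 55.8 and 53.4 CPM untreated, a log2 change of -1.29 ± 0.10 (SE, adjusted p = 1.1e-09 in edgeR's quasi-likelihood test). In Y1F it had 27.3 and 28.4 CPM treated against 52.1 and 52.2 CPM untreated (-0.91 ± 0.10), and in T4V 28.1 and 29.5 against 53.5 and 48.9 CPM (-0.83 ± 0.10). In these 3 lines the replicates lay close together and every treated library stood far below the untreated ones. In S7A it had 29.1 and 31.2 CPM treated against 56.0 and 50.0 CPM untreated (-0.82 ± 0.10), in the Degron line 27.2 and 29.4 against 46.3 and 45.8 CPM (-0.70 ± 0.10), and in S2A 50.6 and 46.5 against 71.4 and 70.6 CPM (-0.55 ± 0.09). The WT line showed the same direction, with 36.9 and 37.6 CPM treated against 56.3 and 54.6 CPM untreated (-0.57 ± 0.09, adjusted p = 7.2e-04 in edgeR's quasi-likelihood test), so the lower level was not particular to the mutants.

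UQCR11 kept its direction and its call in all 7 lines with the authors' factors (log2 change -0.80 to -2.25) and with mitochondrial scaling, and in every fit that left out a library. In WT the call was lost when only the line's own 4 libraries were fitted (adjusted p = 0.27), and the authors' deposited table gives -0.80 there with an adjusted p of 1, while it gives -1.07 to -2.25 in the other 6 lines, with adjusted p of at most 1.3e-07. The gene ENSG00000267059 overlaps UQCR11 on the same strand and had at most 0.168 CPM in the treated and 0.252 CPM in the untreated libraries of the 7 lines. How reads in the shared stretch were assigned is not given in the sources used here.

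UQCRB, which helps bind ubiquinone, was higher in 6 lines. It had 213 and 227 CPM in treated against 152 and 146 CPM in untreated Degron cells (log2 change 0.56 ± 0.09 SE), 228 and 232 against 156 and 163 CPM in Y1F (0.53 ± 0.09), and 183 and 199 against 145 and 136 CPM in S2A (0.45 ± 0.09). The change was 0.40 for T4V, 0.41 for S5A and 0.26 for S7A, and in WT it was 0.15 with an adjusted p of 0.38 in edgeR's quasi-likelihood test. UQCRFS1, the Rieske iron-sulfur protein, was called lower in Y1F, at 74.5 and 80.6 CPM treated against 91.9 and 96.9 CPM untreated (-0.29 ± 0.09). UQCRQ was called higher in Degron, and the remaining 4 genes of the complex, UQCRC1, UQCRC2, UQCRH and UQCR10, were called in no line.

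Complex IV reduces oxygen, and its 10 genes moved within a narrow range. In the Degron line all 10 had a change above 0, from 0.24 (COX7C) to 0.47 (COX4I1), and 4 were called higher. COX6A1, an accessory subunit, was higher in 5 lines. It had 118 and 129 CPM in treated against 95.5 and 87.7 CPM in untreated Degron cells (log2 change 0.43 ± 0.12 SE), 154 and 134 against 110.0 and 110.2 CPM in S2A (0.39 ± 0.12), and 125 and 120 against 92.5 and 85.9 CPM in T4V (0.45 ± 0.12, lost in 3 of 4 fits without a library). In Y1F and S5A its change was 0.32 and 0.45. COX4I1, the largest nuclear subunit, was called in Degron only, with 311 and 402 CPM treated against 279 and 236 CPM untreated (0.47 ± 0.15), and its values in the other lines lay between 0.13 and 0.34. No gene of complex IV was called lower in any line.

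Complex V makes ATP. ATP5F1B, its catalytic subunit and the most abundant gene of all, was higher in 6 lines. It had 1786 and 1775 CPM in treated against 1195 and 1179 CPM in untreated S2A cells (log2 change 0.59 ± 0.08 SE, adjusted p = 7.5e-06 in edgeR's quasi-likelihood test), and 1753 and 1673 against 1325 and 1177 CPM in T4V (0.45 ± 0.08). In the Degron line it had 1603 and 1766 CPM treated against 1220 and 1214 CPM untreated (0.47 ± 0.08), and in S5A 1793 and 1746 against 1302 and 1323 CPM (0.43 ± 0.08). In WT it had 1252 and 1385 CPM treated against 1281 and 1238 CPM untreated (0.07 ± 0.08), and there the groups overlapped. ATP5F1A, which forms the catalytic hexamer with ATP5F1B, was higher in Degron, T4V and S5A, by 0.38, 0.35 and 0.25, and ATP5PD of the peripheral stalk in Degron, Y1F, S2A and T4V, by 0.42, 0.35, 0.42 and 0.29. ATP5MG, a small membrane subunit, was higher in Degron (0.44 ± 0.15) and in S5A, at 56.7 and 54.5 CPM treated against 42.0 and 38.8 CPM untreated (0.46 ± 0.15), a call lost in 3 of 4 fits without a library. ATP5F1D of the central stalk had the lowest change of the complex in Y1F, S2A, T4V, S5A and S7A (-0.32 to -0.62), with its treated libraries below the untreated ones in all 5, and was called in none.

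Whether the lines differed in their response was tested on the difference in log2 change, with the WT change as the base for the mutants. All 5 of these comparisons share the WT libraries. In S5A against WT, 3 members were higher and 2 lower (18.1% of all tested genes called, 6.4% higher and 11.7% lower). SDHA changed by 0.84 ± 0.18 more (SE, adjusted p = 0.0023 in edgeR's quasi-likelihood test), ATP5MG by 0.63 ± 0.21 (adjusted p = 0.04) and ATP5F1B by 0.37 ± 0.11 (adjusted p = 0.025), while UQCR11 changed by -0.72 ± 0.14 (adjusted p = 8.4e-04) and NDUFV3 by -0.54 ± 0.14 (adjusted p = 0.013). In S2A against WT 1 member, ATP5F1B, was higher, by 0.52 ± 0.11 (7.53% of all tested genes called, 2.87% higher and 4.66% lower, adjusted p = 0.0056 in edgeR's quasi-likelihood test). In Y1F, T4V and S7A against WT edgeR's quasi-likelihood test called 0 members. Of all tested genes it called 9.73% in Y1F (3.42% higher, 6.31% lower), 3.7% in T4V (1.36% and 2.35%) and 0.821% in S7A (0.325% and 0.495%). At an unadjusted p under 0.05, 3 were higher and 2 lower in Y1F, 7 and 1 in T4V, and 2 and 0 in S7A, and DESeq2's Wald test called 1 and 0 in Y1F, 3 and 1 in T4V, and 0 in S7A. In S5A against WT, leaving out treated replicate 1 of S5A left 1 member higher, leaving out untreated replicate 1 of S5A left 1 lower, and leaving out treated replicate 1 of WT gave 7 lower. The call of ATP5F1B was lost in the first and the last of these fits, and that of NDUFV3 in the second. The counts of members against WT also depend on the scaling. The authors' factors left 0 members higher in any of the 5 mutant lines against WT, with 45 lower for S5A (43.6% of all tested genes called), 36 for Y1F (35.1%), 10 for S7A (21.8%), 0 for S2A (7.44%) and 0 for T4V (2.94%). With mitochondrial scaling 0 were higher in any of them, and 27 were lower for S5A (36.7%), 1 for S2A (11.2%), 3 for T4V (10.7%), and 0 for Y1F (7.6%) and S7A (1.11%). Missing the threshold does not show that these lines responded like WT.

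In WT against Degron, 0 members were higher and 5 lower (12% of all tested genes called, 8.24% higher and 3.79% lower). These were SDHC (-0.51 ± 0.12), UQCRB (-0.40 ± 0.13), ATP5F1B (-0.40 ± 0.11), SDHB (-0.39 ± 0.13) and ATP5F1A (-0.38 ± 0.11), all log2 differences with SE. With the authors' factors the median difference of the 74 genes was 0.42 instead of -0.24, beside 0.63 instead of 0.01 for all tested genes, and 4 members were higher and 0 lower (30.9% of all tested genes called). With the libraries of these lines fitted alone, 0 members were lower, and without treated replicate 2 of the Degron line 1 was.

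The 13 mitochondrial mRNAs, the partners of these subunits, were higher relative to the typical gene in treated cells. With TMM 12 of 13 were higher for Degron, 1 for WT, 10 for Y1F, 12 for S2A, 11 for T4V, 12 for S5A and 10 for S7A, and 0 were lower in any line, where 3.09% (WT) to 25.5% (S5A) of all tested genes were higher. Their median log2 changes, 0.49, 0.26, 0.40, 0.43, 0.57, 0.80 and 0.42 in the same lines, were above those of the 74 nuclear genes in each. With the authors' factors 0 were higher and 0 to 10 lower, with medians of -0.48 to 0.12. They took 3.30% to 4.71% of counts in the treated libraries of the 7 lines, against 2.57% to 3.37% in the untreated ones. The ratio of mitochondrial to nuclear counts was 3.33 to 4.62 treated and 2.85 to 3.996 untreated, and treated and untreated libraries overlapped within the WT and Degron lines but not within the other 5. In S5A the ratio was 4.48 and 4.44 treated and 2.85 and 3.08 untreated, and 9 of the 13 changed more in S5A than in WT. Of all tested genes, 6.4% were called higher in S5A against WT, and 18.1% in either direction. MT-CYB, the mitochondrial core of complex III, was called in all 7 lines (0.36 to 0.94).

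**Figure D5:**
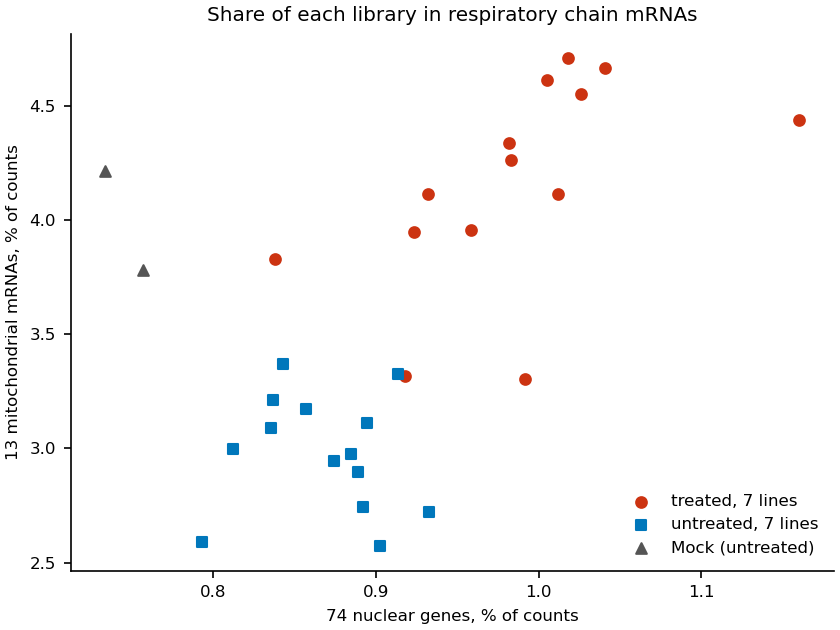
Share of each library's counts in the 74 nuclear genes (horizontal, %) and in the 13 mitochondrial mRNAs (vertical, %); each point is a library, treated or untreated, of the 7 lines, or Mock. Treated libraries lie at 0.838% to 1.16% and 3.30% to 4.71%, untreated ones at 0.793% to 0.933% and 2.57% to 3.37%.

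Other genes of the pathway were counted in the same way. Of 50 assembly factors, 8 were higher and 12 lower for Degron, 0 and 1 for WT, 3 and 17 for Y1F, 2 and 10 for S2A, 3 and 14 for T4V, 6 and 20 for S5A, and 2 and 11 for S7A, with medians of -0.07 to -0.24. Of all tested genes, 23.1% were higher and 21.4% lower for Degron, and in the other lines 3.09% (WT) to 25.5% (S5A) were higher and 1.84% (WT) to 24.2% (S5A) lower, and the counts of all lists here are to be read against these shares. COA7, a complex IV assembly factor, was lower in all 7 lines, with 23.0 and 25.03 CPM in treated against 74.8 and 82.4 CPM in untreated Degron cells (log2 change -1.71 ± 0.09 SE). Of 17 regulators of respiratory chain transcription, 1 was higher and 15 lower for Degron, 0 and 13 for Y1F, 1 and 8 for S2A, 0 and 6 for T4V, 0 and 13 for S5A, 0 and 11 for S7A, and 0 in either direction for WT, with medians of -0.21 to -0.75. PPRC1, a coactivator of NRF1, had 35.6 and 46.4 CPM in treated against 139.9 and 125 CPM in untreated Degron cells (-1.69 ± 0.16), and TFAM, which packages mitochondrial DNA, was the 1 regulator higher there (0.69 ± 0.22). Of 13 tricarboxylic acid cycle enzymes, 7 were higher and 0 lower for Degron, 0 and 0 for WT, 4 and 1 for Y1F, 1 and 1 for S2A, 4 and 1 for T4V, 5 and 0 for S5A, and 2 and 1 for S7A. Of 11 tested among 15 subunits and isoforms that the symbols chosen leave out, 5 were higher and 2 lower in Degron and at most 3 were called in one direction in any other line. With the authors' factors 0 assembly factors, 0 regulators and 0 cycle enzymes were higher in any line, and up to 47, 17 and 12 were lower, where 3.27% (WT) to 71.3% (S5A) of all tested genes were called.

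The 74 genes are short, with a median exon length of 2545 bp (507 to 14160 bp) against 4181 bp for the 19035 tested genes with a known length. Across the 74 genes Spearman's rho between length and log2 change was -0.24 to 0.14 over the 7 lines, and across all those tested genes it was -0.18 to -0.05. Genes of a library share its depth and composition and are not independent replicates.

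The untreated libraries of the 7 lines differed from Mock in many members, as they did in most genes. Higher and lower were 14 and 22 for Degron (64.8% of all tested genes called), 12 and 20 for WT (63.6%), 12 and 21 for Y1F (62.9%), 18 and 16 for S2A (64.1%), 12 and 20 for T4V (63%), 16 and 21 for S5A (63.4%) and 14 and 26 for S7A (63.5%). In every line 11 members were higher and 13 lower. UQCRFS1 had 71.3 to 106 CPM in the untreated libraries of the 7 lines against 314 and 316 CPM in Mock (log2 change -1.63 to -2.12), and NDUFS4 had 10.8 to 20.1 CPM against 46.0 and 51.7 CPM (-1.37 to -2.17). UQCR11 was higher in every line, by 0.66 to 1.29, and in each line its mean in treated cells lay nearer to the 27.3 and 30.9 CPM of Mock than its mean in untreated cells. All of these comparisons share the 2 Mock libraries, and the lines and Mock differ in marker profile, so a difference in genotype and one in cell identity cannot be told apart. With mitochondrial scaling, which moves every gene of a library alike, the counts became 39 to 59 higher and 3 to 6 lower. The 13 mitochondrial mRNAs took 3.78% to 4.22% of counts in Mock, against 2.57% to 3.37% in the untreated libraries of the 7 lines. The share of all tested genes called against Mock with this scaling is not at hand.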

How the data were processed

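Poly(A) RNA-seq of 30 libraries was read from gene tables with raw counts and TPM, and from 7 tables of the authors' own comparisons. Per the submitters' processing notes, the tools were Trim Galore 0.6.2, STAR 2.7.3a, featureCounts 2.0.1 and DESeq2 1.24.0, and the builds hg38 and dm6. Which annotation release was used, whether strand was considered and how multimapping reads were counted: none of these is given in the sources used here. The authors' deposited counts are whole numbers and were used as they are. The authors' deposited TPM values (sums of 998366 to 999347 per library) served only for levels. Per the file headers, the authors' comparison tables hold a base mean, a signal that is the mean count over a factor per library, with a log2 fold change, a p-value and an adjusted p-value. How these factors were set is not stated, so each library's factor was solved from the base means and counts.

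Genes were kept with edgeR's filterByExpr (minimum count 10, total 15), which left 19982 of 61578. One model over all 15 groups was fitted with edgeR 4.0.16 (R 4.3.3, limma 3.58.1, TMM scaling, robust quasi-likelihood test, 15 residual degrees of freedom, common dispersion 0.0122). Contrasts were treated against untreated in 7 lines, 6 differences of those changes, and 7 untreated lines against Mock, with Benjamini-Hochberg adjustment over all genes in each and a threshold of 0.05. CPM values are TMM-scaled. Tables used pandas 2.3.3 and numpy 2.4.6 in Python 3.11.15, and figures matplotlib 3.10.9. The edgeR fit was tested on counts simulated for the Degron contrast alone, with known changes in a small part of the genes. That simulation held no shift of the typical gene, so it does not bear on the choice of scaling. Gene positions are from GENCODE 29 (56659 IDs matched) and promoters from RefSeq. Alternatives were DESeq2 1.42.0 (Wald test, size factors), the authors' factors, mitochondrial scaling, other filters, fewer libraries, a replicate block and each library left out. Replicates differed by more than sampling noise in counts (chi-square per degree of freedom 1.29 to 27.7), and none was counted as 1 with another.

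The members and lists were chosen with earlier results of these data known. Members named by rule were, per line, up to 3 called higher and 3 called lower with the largest change whose libraries did not overlap, up to 3 per difference, and up to 2 per comparison with Mock. The highest and lowest gene of each complex, the complex II genes and the ATP5MC genes were named for their levels. Other members given with values (such as SDHB, UQCRFS1, COX4I1, ATP5F1A, ATP5PD and ATP5F1D) and COA7, PPRC1, TFAM and MT-CYB were chosen after their values were seen. The values of 1 member are not reported here, though it stays in the counts and medians.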

Additional observations from a re-analysis of the deposited data

Results flagged for a closer look

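Of the 74 genes, 7 results were flagged because the response to treatment differed between lines in a test of the difference itself (the quasi-likelihood test of edgeR, adjusted by Benjamini-Hochberg). In WT against Degron the log2 change was lower for SDHC by -0.514 (adjusted p = 0.0047), for UQCRB by -0.404 (adjusted p = 0.043) and for ATP5F1B by -0.403 (adjusted p = 0.019). SDHC kept its call in each of 8 fits that left out a library, whereas UQCRB lost it in 8 and ATP5F1B in 6. The SDHC call was lost with only the libraries of these lines fitted (-0.53, adjusted p = 0.13), with no low-count filter (adjusted p = 0.079) and with mitochondrial scaling (-0.25, adjusted p = 0.33). UQCRB and ATP5F1B lost theirs with only these libraries (adjusted p = 0.19 and 0.14) and with mitochondrial scaling (adjusted p = 0.58 and 0.63), and UQCRB also with no low-count filter, a replicate block and without the 2 Mock libraries. The differences turned, with the authors' factors, to 0.11 for SDHC, 0.22 for UQCRB and 0.24 for ATP5F1B, none of them called. Treated Degron cells had no doxycycline, so the complement and the drug cannot be told apart here.

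In S2A against WT, ATP5F1B changed by 0.519 more (adjusted p = 0.0056). In S5A against WT, SDHA changed by 0.839 more (adjusted p = 0.0023), ATP5MG by 0.626 more (adjusted p = 0.04) and UQCR11 by -0.720 (adjusted p = 8.4e-04). The calls of ATP5F1B in S2A against WT, and of SDHA and UQCR11 in S5A against WT, held in all 8 such fits, and that of ATP5MG was lost in 7. With the authors' factors the SDHA difference was 0.10 (adjusted p = 0.82), that of ATP5F1B in S2A 0.22 (adjusted p = 0.61) and that of ATP5MG -0.06 (adjusted p = 0.9). With mitochondrial scaling they were 0.31 (adjusted p = 0.33), 0.24 (adjusted p = 0.33) and 0.105 (adjusted p = 0.72), while UQCR11 kept its call in both scalings. ATP5MG also lost its call with no low-count filter (adjusted p = 0.072) and without the 2 Mock libraries (adjusted p = 0.064). The 4 results against WT share the WT libraries, and WT treated replicates 1 and 2 moved the median of the 74 genes in opposite directions when left out. Their part in these differences was not tested.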

How the results depend on the processing

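Counts below are members higher or lower, and those not given were within 1.5 times the count with TMM and all 30 libraries. Shares of all tested genes called are at hand for the authors' factors and mitochondrial scaling, and for treated against untreated in a line's own libraries. For the other settings below, and for any alternative against Mock, no such share is at hand. Those counts are therefore not set against the typical share of calls. With the authors' factors 0 members were higher in Degron, Y1F, S2A, T4V, S5A, S7A, S2A against WT and S5A against WT, and 4 in WT against Degron; 51 were lower for Degron, 66 for Y1F, 22 for S2A, 12 for T4V, 67 for S5A, 66 for S7A, 0 in WT against Degron, 36 in Y1F against WT, 45 in S5A against WT and 10 in S7A against WT. Log2 changes that reversed there were NDUFA2 in Degron (-0.099), S5A (-0.434) and S7A (-0.392), SDHA in Degron (-0.106), Y1F (-0.021) and S7A (-0.005), NDUFC1 in Y1F (-0.090), UQCRB in S2A (-0.066), ATP5F1B (-0.001) and COX6A1 (-0.004) in T4V, ATP5MG in S5A (-0.495) and in S5A against WT (-0.061), NDUFV1 in S7A (-0.306), and, in WT against Degron, SDHC (0.114), UQCRB (0.221) and ATP5F1B (0.240). This scaling was not run against Mock, which has no such factor.

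With mitochondrial scaling 0 were higher in Degron, S2A, T4V, S2A against WT and S5A against WT, 3 in Y1F, and 1 each in S5A and S7A; 11 were lower for Degron, 2 for WT, 20 for Y1F, 29 for S2A, 38 for T4V, 57 for S5A, 21 for S7A, 0 in WT against Degron, 1 in S2A against WT, 3 in T4V against WT and 27 in S5A against WT. Against Mock it gave 39 higher and 6 lower for Degron, 47 and 4 for WT, 44 and 6 for Y1F, 56 and 4 for S2A, 55 and 3 for T4V, 59 and 3 for S5A, and 52 and 3 for S7A. Reversed were UQCRB in S2A (-0.051), SDHA (-0.043), ATP5F1B (-0.138) and COX6A1 (-0.137) in T4V, and NDUFA2 (-0.223) and ATP5MG (-0.285) in S5A. The typical gene is set elsewhere by construction in both scalings.

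DESeq2's Wald test called 1 higher in WT, 14 in S2A, 16 in S5A, 9 in S7A, 1 in Y1F against WT, 3 in S2A against WT, 3 in T4V against WT and 6 in S5A against WT; it called 2 lower in Y1F, 2 in S5A, 10 in WT against Degron and 1 in T4V against WT. DESeq2 size factors gave 14 higher and 2 lower in S5A, 9 higher in S7A and 1 higher in Y1F against WT. A mean of at least 5 CPM, which drops NDUFV2, NDUFA7 and NDUFA13, gave 3 higher in WT, 22 in Y1F, 23 in S2A, 25 in S5A, 16 in S7A, 4 in Y1F against WT, 5 in S2A against WT, 3 in T4V against WT and 7 in S5A against WT; it gave 1 lower in Y1F, 2 in S2A, 1 in S5A, 10 in WT against Degron and 1 in T4V against WT. With no low-count filter 7 were higher and 4 lower in T4V, 9 lower in S5A, 2 lower in S7A, 2 lower in WT against Degron, 1 lower in Y1F against WT, 2 lower in T4V against WT, and 1 higher and 5 lower in S5A against WT. Fitting only the libraries of the lines compared gave 12 higher in Degron, 38 in S2A, 1 in T4V, 37 in S5A, 3 in S7A and 25 in S5A against Mock; it gave 0 lower in WT, 2 in Y1F, 12 in S5A, 0 in WT against Degron, 1 in S5A against WT, 31 in WT against Mock, 28 in S2A against Mock and 12 in T4V against Mock. Leaving out the 2 Mock libraries, chosen after seeing the data, gave 2 lower in T4V, 3 in WT against Degron and 1 in Y1F against WT. Apart from the scalings and the smaller sets of genes and libraries, the cause was not tested.

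Each library left out in turn gave 10 to 32 higher for Degron, 0 to 2 for WT, 4 to 6 for Y1F, 3 to 5 for S2A, 2 to 7 for T4V, 4 to 9 for S5A and 2 to 7 for S7A, and 1 to 1, 1 to 1, 2 to 4, 3 to 4, 1 to 3, 1 to 3 and 1 to 3 lower in that order. It gave 0 higher and 1 to 5 lower in WT against Degron, 0 and 0 to 1 in Y1F against WT, 1 and 0 in S2A against WT, 0 and 0 to 1 in T4V against WT, 1 to 2 and 1 to 7 in S5A against WT, and 0 and 0 in S7A against WT. Against Mock it gave 10 to 16 higher for Degron, 11 to 13 for WT, 11 for Y1F, 12 to 16 for S2A, 12 to 17 for T4V, 15 to 16 for S5A and 12 to 14 for S7A, and 16 to 20, 16 to 19, 18 to 20, 14 to 15, 13 to 20, 12 to 19 and 17 to 27 lower. The lone library of a group is there assumed to vary like the others. Deviations of same-numbered libraries correlated from -0.719 (Degron) to 0.616 (S7A) over 11654 genes. Replicate numbers thus gave no pairing that held across the lines, and a pairing within S7A alone was not tested. With a replicate block, members lower in WT against Degron became 3, and no other count moved by more than 1.5 times. With 2 libraries a group, small changes of low genes such as NDUFV2 were not detectable at this depth.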
